A study of Fukomys damarensis and Heterocephalus glaber and Mus musculus with 160 samples.

Results

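Tnnt2, Actc1 and Ttn, 3 genes of the heart muscle sarcomere, were followed through the histone peak lists of mouse liver and heart. The members were the peaks that overlapped 3 fixed windows of the GRCm38 build: chr1:135825000-135855000 for Tnnt2 (ENSMUSG00000026414.13), chr2:114040000-114060000 for Actc1 (ENSMUSG00000068614.7) and chr2:76700000-76990000 for Ttn (ENSMUSG00000051747.14). Of 1711588 peaks in 29 mouse histone lists, 282 fell in these windows: 85 at Tnnt2, 57 at Actc1 and 140 at Ttn. The series holds 160 samples and 116 peak lists from mouse, guinea pig and 2 species of African mole-rat, most of them made by chromatin immunoprecipitation and sequencing (ChIP-seq) of histone marks and transcription factors or their inputs, with a few libraries of chromosome conformation. All mouse libraries came from wild-type adult males of the strain C57BL/6J, aged 2 months, with no treatment or engineered allele. Liver was sampled from 4 animals, each used for H3K4me3, H3K27ac and H3K4me1. Heart gave 6 lists of H3K4me3, 6 of H3K27ac and 5 of H3K4me1 from other animals, and in each heart group 1 library was a pool of 3 mice counted as 1 replicate. Tissue was diced whole, so each list averages over all cell types of the organ, and fewer cells carrying a mark cannot be told apart from less mark per cell.

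The sarcomere is the contractile unit of striated muscle, in which thick myosin filaments slide along thin actin filaments. Actc1 encodes cardiac alpha-actin, the building block of the thin filament. Tnnt2 encodes cardiac troponin T, the subunit that ties the calcium-sensing troponin complex to tropomyosin on that filament. Ttn encodes titin, a giant elastic protein that links the end of the sarcomere to its middle and sets its passive stiffness. H3K4me3, trimethylated lysine 4 of histone H3, is concentrated at active promoters. H3K27ac, acetylated lysine 27, marks active promoters and enhancers, and H3K4me1 is typical of enhancers and of the flanks of promoters. In mouse, Tnnt2 is transcribed from the forward strand, Actc1 and Ttn from the reverse strand. No gene annotation of GRCm38 was used, so positions are given by coordinate and not by exon or intron.

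Over the 3 genes the 17 heart lists held 269 of the 282 peaks and the 12 liver lists held 13. These counts are not scaled to the number or size of the lists. The 13 liver peaks were all H3K4me1: 8 at Actc1, 4 at Tnnt2 and 1 at Ttn. H3K4me3 and H3K27ac peaks were present at all 3 genes in 6 of 6 heart libraries and in 0 of 4 liver libraries. Among all stretches of the genome of the same length that held a peak of the mark, 1.71%, 1.68% and 1.81% showed this for H3K4me3 at the lengths of the Tnnt2, Actc1 and Ttn windows, and 6.74%, 7.07% and 3.41% for H3K27ac. H3K4me1 did not divide the tissues in this way. It was found in 4 of 5 heart and 2 of 4 liver libraries at Tnnt2, in 2 of 5 heart and 4 of 4 liver libraries at Actc1, and in 4 of 5 heart and 1 of 4 liver libraries at Ttn. A list without a peak says that no region passed the caller's threshold there, not that the mark was absent, and read depth is unknown.

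Lists held 17431 to 32785 H3K4me3 peaks, 56871 to 109724 H3K27ac peaks and 20521 to 129914 H3K4me1 peaks. A window on Myh6, the main myosin heavy chain of adult mouse heart, held H3K4me3 and H3K27ac peaks in 6 of 6 heart and 0 of 4 liver libraries, and H3K4me1 in 1 of 5 heart and 0 of 4 liver libraries. A window on Alb, the serum albumin gene of hepatocytes, held H3K4me3 and H3K27ac peaks in 4 of 4 liver libraries and H3K4me1 peaks in 3 of 4. In heart, Alb held peaks in 1 of 6 H3K4me3 lists, that of animal 6837, with 1681 bases covered, and in none of the 6 H3K27ac or 5 H3K4me1 lists. That list was also the only 1 of 29 closer to the other tissue: its median Jaccard index, the bases shared by 2 lists over the bases in either, was 0.554 with the liver lists and 0.495 with the other heart lists. It held Myh6 peaks over 8668 bases, the most of the 6 heart H3K4me3 lists, and without it H3K4me3 was present at all 3 genes in 5 of 5 heart libraries. The heart H3K4me1 list of the pool stood apart by size, with 20521 peaks against 70880 to 129914 in the other 4, and its median Jaccard index with them was 0.0936. Among the liver H3K4me1 lists, that of 85924 had no Alb peak and was the largest, with 113889 peaks. Its median Jaccard index with the other liver lists was 0.367, against 0.545 to 0.553 for those lists. It held 6 of the 13 liver peaks in the 3 gene windows. All 12 liver lists were called against an input of the same animal but only 4 of 17 heart lists were, so for most heart lists tissue and kind of input cannot be told apart. The pool was called against its own input. Its lists held H3K4me3 and H3K27ac peaks at all 3 genes, with the least H3K27ac of the 6 heart lists at each. Its H3K4me1 list held no peak at Tnnt2 or Ttn. What the kind of input changes was not tested.

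**Figure D1:**
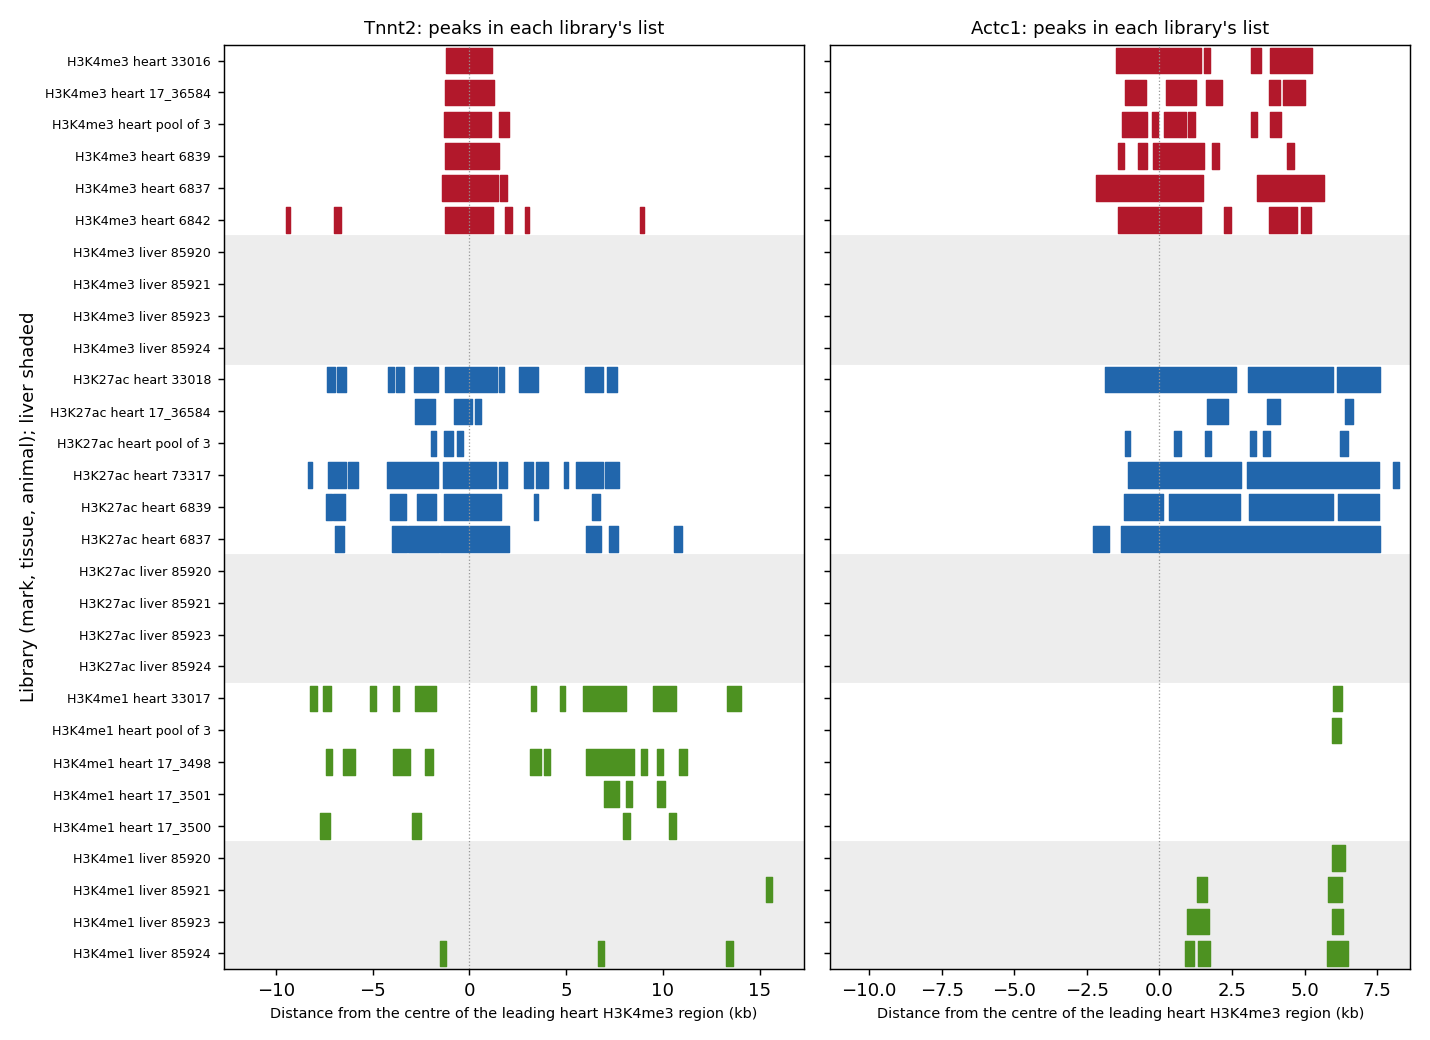
Each row is 1 of 29 libraries and each bar a peak in its list; the horizontal axis is the distance in kb from the centre of the heart H3K4me3 region with the highest mean fold, in the Tnnt2 window on the left and the Actc1 window on the right. Red is H3K4me3, blue H3K27ac and green H3K4me1, and liver rows are shaded. All 6 heart H3K4me3 lists have a peak over position 0 or beside it at both genes, and the 8 liver rows of H3K4me3 and H3K27ac are empty.

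At Tnnt2, heart H3K4me3 formed a compact block. The 6 heart libraries had 2419 to 3869 bases of the window under H3K4me3 peaks, with a median of 2899.5, and the 4 liver libraries had 0. The lowest heart library was 33016 and the highest 6842, whose list also held 3 small peaks more than 5 kb from its centre. The heart region covered in at least 3 of the 6 libraries was chr1:135836432-135838959, 2528 bases wide, and all 6 libraries had a peak on it. Its fold enrichment, the linear ratio over background that the authors' peak caller gave each peak, was 9.74 in the pool, 13.4 in 17_36584, 19.7 in 6839, 32.7 in 33016, 35.4 in 6837 and 65.2 in 6842. A second region, chr1:135839532-135839619, was 88 bases wide and found in 3 of 6 libraries at a mean highest fold of 5.88 ± 1.66 (SD over those 3). The mean share of the window under H3K4me3 was 9.93 ± 1.78% (SD, n = 6) in heart against 0% in liver (n = 4).

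H3K27ac at Tnnt2 was spread over more regions than H3K4me3. In heart it covered 1079 bases in the pool, 2228 in 17_36584, 6364 in 6839, 8060 in 6837, 8218 in 33018 and 10928 in 73317, and in the 4 liver libraries 0. The pool and 17_36584 were the low pair. Their lists held 104892 and 66161 peaks in all, within the range of the others. Their median peak widths were 355 and 490 bases, against 474 to 705 in the other heart H3K27ac lists. Why this pair was low was not tested. Heart H3K27ac fell into 10 regions, of which 2 had a peak in all 6 libraries. The widest, chr1:135836375-135839121 with 2747 bases, lay on the H3K4me3 block and had the highest mean fold of 15.2 ± 9.77 (SD, n = 6). Just before it lay chr1:135834839-135836082, also in all 6 libraries, at 9.14 ± 2.61, where no H3K4me3 list had a peak. The region chr1:135839209-135839511 after the block was found in 4 of 6 libraries at a mean of 10.01 ± 7.64. That mean takes in the wide block peaks of 6839 (20.9) and 6837 (9.66), which reach into the region. The separate peaks of 33018 and 73317 there had folds of 5.31 and 4.17. The region chr1:135833598-135834440 was found in 4 of 6 at 9.56 ± 2.91. Its value of 13.1 in 73317 is from a peak that also spans chr1:135834839-135836082. The others had lower means, from 4.27 to 6.45, and reached from 7.20 kb before the centre of the H3K4me3 block to 7.44 kb after it.

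Heart H3K4me1 at Tnnt2 lay on both sides of the promoter mark. It covered 7046 bases in 33017, 6653 in 17_3498, 1704 in 17_3500, 1498 in 17_3501 and 0 in the pool. The 5 heart regions of this mark, each in 3 of 5 libraries, were at 7.30 kb before the block's centre and at 7.37, 8.00, 8.19 and 9.86 kb after it. The widest was chr1:135844672-135845452 with 781 bases and a mean highest fold of 5.73 ± 1.99 (SD over 3). The highest means were 6.26 ± 1.36 at chr1:135845618-135845781 and 5.99 ± 1.44 at chr1:135830279-135830518. The first of these takes in the 33017 peak with a fold of 7.83, which also spans the widest region. No heart H3K4me1 list had a peak on the H3K4me3 block. Taking all heart libraries together, 4615 bases carried H3K4me3, 10364 carried H3K4me1 and 167 carried both, which is 3.62% of the first and 1.61% of the second. H3K27ac lay over 87.8% of the H3K4me3 bases and 56.6% of the H3K4me1 bases. In liver, H3K4me1 covered 1007 bases in 85924, in 3 separate peaks of at most 345 bases, 313 bases in 85921 and 0 in 85920 and 85923.

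Heart and liver were compared at Tnnt2 by the mean share of the window under peaks, with a two-sided exact permutation test over libraries run on every stretch of the genome of the same length that held a peak, and Benjamini-Hochberg adjustment over all of them. H3K27ac was higher in heart by 20.5 percentage points, from 20.5 ± 12.6% (SD, n = 6) against 0% (n = 4), with an exact p = 0.00952 and an adjusted p = 0.0300. The same call was made for 17.4% of 34903 such stretches. It was lost when any of the 4 liver libraries or heart 33018, 73317, 6839 or 6837 was left out (adjusted p from 0.0556 to 0.117). Without a liver library the difference stayed at 20.5 points, as every liver value was 0, and only the test had fewer libraries to arrange. The call held without the low libraries 17_36584 (0.0434) or the pool (0.0431). For H3K4me3 the exact p was 0.00476, the smallest that 6 against 4 libraries can give, but no stretch passed the adjustment: 0% of 30008 were called, the adjusted p at Tnnt2 was 0.132, and 6.30% had an unadjusted p under 0.05 with heart higher. The H3K4me1 difference of 10.2 percentage points, 11.3 ± 10.8% (n = 5) against 1.10 ± 1.58% (n = 4), had an exact p = 0.135 and an adjusted p = 0.357. For that mark 0% of 44388 stretches were called with heart higher and 5.50% had an unadjusted p under 0.05. Without 6837, the H3K4me3 share was 9.74% in heart, and without the pool the H3K4me1 difference was 13.0 points (adjusted p = 0.111, exact permutation test).

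The flank of the Tnnt2 window behaved otherwise than the window. In the 10000 bases below its lower edge all 4 liver libraries had H3K27ac (3574 to 3937 bases), against 1 of 6 heart libraries with 272 bases. H3K4me3 there covered 838 to 1697 bases in the 4 liver libraries, and at most 543 in heart, where 5 of 6 libraries had it. H3K4me1 covered 3093 to 5060 bases in the 4 liver libraries and at most 1181 in heart, in 3 of 5 libraries. When the window was widened by 10000 bases on each side, the H3K27ac difference shrank to 5.65 points, 13.2% in heart against 7.59% in liver, and the call was lost (adjusted p = 0.260, exact permutation test). The H3K4me3 difference was then 4.22 points. For H3K4me1 it was 0.674 points, 8.80% in heart against 8.13% in liver, and neither was called. Which gene lies in that flank was not analysed here.

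At Actc1, H3K4me3 and H3K27ac in heart lay in the upper part of the window. H3K4me3 covered 2606 to 5988 bases of the window in the 6 heart libraries, with a median of 3909.5, and 0 in liver. It was highest in 6837, followed by 33016 with 4935 and 6842 with 4380, and lowest in the pool. The 2 heart regions were found in all 6 libraries. The widest and highest, chr2:114049917-114052785 with 2869 bases, had folds of 7.25 in 17_36584, 9.03 in 6839, 11.1 in the pool, 14.7 in 6837, 22.9 in 33016 and 38.5 in 6842. The other, chr2:114055141-114056567, was 4.50 kb away from centre to centre and lower, with a mean highest fold of 8.58 ± 4.70 (SD, n = 6) against 17.2 ± 11.8 at the first. In the break between them 6837 had H3K27ac throughout, and the H3K27ac peaks of the other 5 libraries were themselves interrupted there.

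H3K27ac at Actc1 split the heart libraries into high and low values. It covered 9446 bases in 6837, 8913 in 33018, 8664 in 73317 and 8042 in 6839, against 1425 in 17_36584 and 1398 in the pool, and 0 in liver. In 6837 a peak of 8907 bases, the widest of the 282, spanned nearly the whole block, whereas the pool had 6 peaks of at most 268 bases. All 3 heart regions had a peak in 6 of 6 libraries at like means: chr2:114050143-114054131, the widest with 3989 bases, at 10.97 ± 6.48, chr2:114054400-114057325 at 10.9 ± 3.88 and chr2:114057475-114058913 at 10.8 ± 5.50 (SD, n = 6). The likeness is partly built in, because a peak counts in every region it overlaps. The wide peak of 6837, with a fold of 13.5, counts in all 3 regions. A peak of 73317 with a fold of 15.7 counts in both regions from 114054400 on. Joined over gaps of up to 1000 bases, the regions of both marks made 1 cluster of 8997 bases, chr2:114049917-114058913. Every base under H3K4me3 in any heart library was also under H3K27ac in some heart library (7106 of 7106), and H3K4me3 lay over 70.4% of the H3K27ac bases.

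H3K4me1 at Actc1 covered few bases in either tissue. The 4 liver libraries had 457, 861, 1160 and 1454 bases in 85920, 85921, 85923 and 85924. In heart, 33017 had 311 bases, the pool 291, and 17_3498, 17_3501 and 17_3500 had 0, so every liver value was above every heart value. The same was found in 13.2% of 58338 stretches of this length with an H3K4me1 peak. The separation did not hold on the scale of each list's own coverage of the genome, where the pool, the smallest list, stood at 4.12 times its genome level and the 4 liver libraries at 0.989 to 2.52. The widest liver region, chr2:114057149-114057747 with 599 bases, was found in 4 of 4 liver libraries at a mean fold of 4.89 ± 1.21 (SD, n = 4), and both heart peaks fell on it. The other liver regions were chr2:114052628-114053062, in 3 of 4 at 6.01 ± 2.38, and chr2:114052301-114052549, in 2 of 4 at 4.15 ± 0.0463. In heart libraries these same liver-marked stretches carried the other marks: the region at 114057149 had H3K27ac in 6 of 6, and the regions at 114052301 and 114052628 had H3K4me3 in 6 and 5 of 6. Heart H3K4me3 and heart H3K4me1 shared 0 bases.

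In the comparison of tissues at Actc1, H3K27ac was higher in heart by 31.6 percentage points, 31.6 ± 19.1% (SD, n = 6) against 0% (n = 4), with an exact p = 0.00952 and an adjusted p = 0.0309. The same was called for 14.1% of 44684 stretches of this length. The call was lost without any of the 4 liver libraries or heart 33018, 73317, 6839 or 6837 (adjusted p from 0.111 to 0.144) and held without 17_36584 (0.0449) or the pool (0.0446). Without a liver library the difference itself stayed at 31.6 points. H3K4me3 covered 20.1 ± 6.57% in heart and 0% in liver, with an exact p = 0.00476 and an adjusted p = 0.131. No stretch passed for H3K4me3 (0% of 34388 called, 6.02% with an unadjusted p under 0.05 and heart higher). Without 6837 the H3K4me3 share was 18.2%. The H3K4me1 share was 0.602 ± 0.825% in heart (n = 5) and 4.91 ± 2.13% in liver (n = 4), a difference of -4.31 points with an exact p = 0.00794, the smallest 5 against 4 can give, and an adjusted p = 0.0709. Relative to each list's own coverage the means were 0.899 in heart and 1.80 in liver (exact p = 0.405, adjusted p = 0.617). For this direction 0% of 58338 stretches were called and 20.5% had an unadjusted p under 0.05 with liver higher. With every H3K4me1 list reduced to its 20521 highest peaks by fold, the size of the smallest list, the difference turned to 0.291 points (heart 0.291%, liver 0%, adjusted p = 1 in the exact permutation test). The pool is that smallest list and was not cut, so its peak of 291 bases stayed. The liver lists, of 86486 to 113889 peaks, were cut and lost all their peaks here. This turn was fixed by the setting and says nothing about the tissues.

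**Figure D2:**
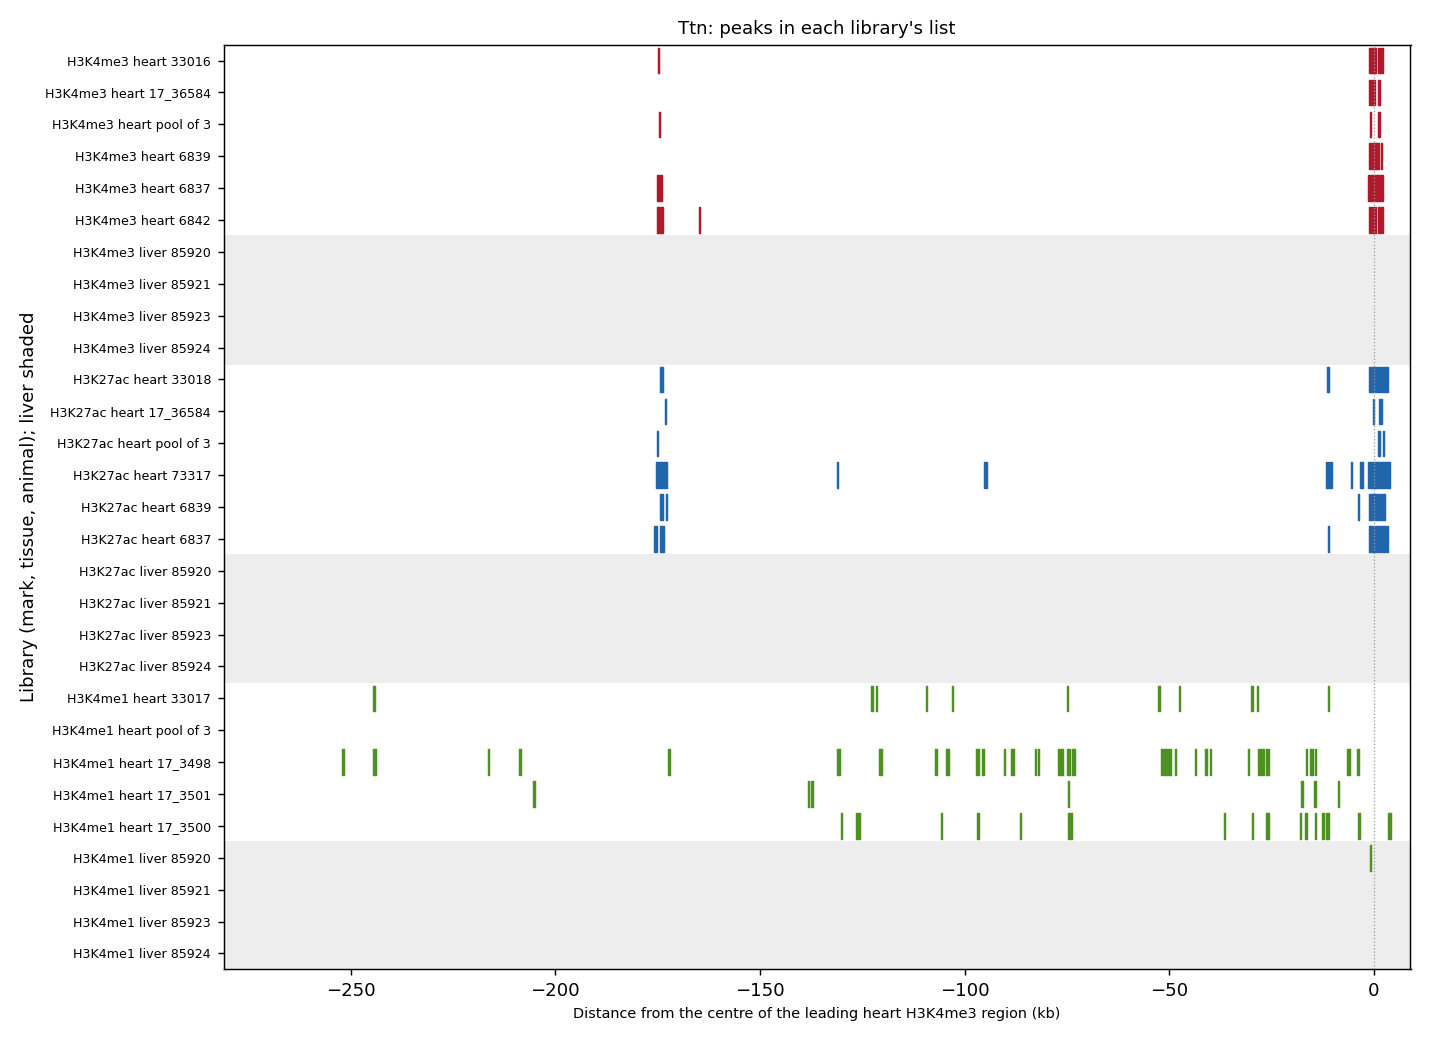
Peaks in the 290 kb Ttn window, 1 row per library, with the distance in kb from the centre of the leading heart H3K4me3 region at the upper end of the window; colours as H3K4me3 red, H3K27ac blue, H3K4me1 green, liver shaded. Heart H3K4me3 and H3K27ac sit mostly at position 0 and about 174 kb below it, while 60 of the 69 heart H3K4me1 peaks are spread over the stretch between.

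Ttn, the longest of the 3 windows, had H3K4me3 mainly at 2 separated places. In heart, H3K4me3 covered 918 to 4338 bases, with a median of 2325, and liver had 0. The pool was lowest and 6837 highest, followed by 6842 with 4063. The regions of H3K4me3 and H3K27ac, joined over gaps of up to 1000 bases, made 3 clusters. The uppermost, chr2:76979842-76984485 with 4644 bases, lay at the upper end of the window, the side from which a reverse-strand gene is transcribed, and all 6 heart libraries had H3K4me3 peaks there, over 726 to 3306 bases with a median of 2225.5. It held 60.0% of the window's H3K4me3 bases in 6842 and 100% in 17_36584 and 6839, with the other 3 libraries in between. Its highest regions by mean fold were chr2:76980486-76981594, the widest with 1109 bases and found in 5 of 6 libraries, at 13.98 ± 7.39, chr2:76982024-76982510 in all 6 at 13.2 ± 7.005 and chr2:76979885-76980368 in all 6 at 12.4 ± 5.68 (SD over the libraries with a peak). A single wide peak of 6837, with a fold of 12.4, counts in all 3 of these regions.

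The inner Ttn cluster lay far inside the gene's window, at chr2:76806164-76808205. It was 2042 bases wide, and 161588 bases separated it from the next cluster. H3K4me3 was found there in 4 of 6 heart libraries: 1099 bases in 6842, 749 in 6837, 199 in 33016 and 192 in the pool, with folds from 4.76 to 8.83. Libraries 17_36584 and 6839 had none. H3K27ac was found there in 5 of 6, with 1906 bases in 73317, 948 in 6839, 943 in 6837, 792 in 33018 and 308 in 17_36584, at folds from 4.50 to 10.8. The pool had no H3K27ac inside the cluster, but a peak of 180 bases with a fold of 4.95, chr2:76805983-76806162, ended just before its lower edge. Of the 4 hearts with lists of both marks, 6837 had both inside the cluster, 6839 and 17_36584 had H3K27ac without H3K4me3, and the pool had H3K4me3 without H3K27ac. No liver library had a peak of any mark on it, and no heart H3K4me1 list did either. As background, titin has a shorter isoform known to start from a promoter inside the gene; whether this cluster lies on it was not analysed here.

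H3K27ac over the whole Ttn window covered 766 bases in the pool, 1186 in 17_36584, 4670 in 6839, 5786 in 33018, 6130 in 6837 and 9983 in 73317, again with the pool and 17_36584 lowest, and 0 in liver. Of its 7 heart regions, 2 had a peak in 6 of 6 libraries, both in the uppermost cluster. The highest means were 15.5 ± 7.76 at chr2:76981975-76982527, 12.2 ± 7.21 at chr2:76982698-76983777 (n = 6 each) and 12.01 ± 5.07 at the widest, chr2:76979842-76981771 with 1930 bases (5 of 6). Between the clusters a region of 312 bases, chr2:76969794-76970105, carried H3K27ac in 3 of 6 and H3K4me1 in 2 of 5 heart libraries and no H3K4me3. Library 73317 held 16 of the 42 heart H3K27ac peaks at Ttn, and its uppermost cluster had 41.8% of its bases, against 67.4 to 76.5% in the other 5.

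H3K4me1 was scattered along Ttn in heart. It covered 18517 bases in 17_3498, 7562 in 17_3500, 3938 in 33017, 2627 in 17_3501 and 0 in the pool. Divided by each list's own coverage of the genome, these were 2.17, 1.28, 0.326, 0.482 and 0 times the genome level. Their mean was 0.852 ± 0.875 (SD, n = 5), which counts the small list of the pool as 0. Libraries 17_3498 and 17_3500 lay above the genome level and the others below it. The lists thus did not agree on whether the window was denser in this mark than the genome. In liver 85920 had 308 bases and 85921, 85923 and 85924 had 0. Of the 69 heart peaks, 34 were from 17_3498. Their median width was 390 bases and their folds ran from 2.85 to 7.89. Between the inner and the uppermost cluster lay 60 of the 69, below the inner one 6 and above the uppermost 1, and the other 2 touched the small region at 76969794. The heart H3K4me1 peaks reached 19 of 30 bins of 10 kb, of which 15 were left without library 17_3498. Heart H3K4me3 reached 4 bins and heart H3K27ac 7, of which 4 were left without library 73317. Only 2 stretches were covered in 3 or more of the 5 libraries: chr2:76906193-76906582, the widest with 390 bases, in 4 of 5 at a mean fold of 5.37 ± 0.575, and chr2:76966645-76966885 in 3 of 5 at 5.72 ± 1.13. Heart H3K4me1 and H3K4me3 shared 0 bases, out of 28048 and 5122 under each. The liver peak of 85920 lay in the uppermost cluster, where no heart H3K4me1 list had 1.

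In the comparison of tissues at Ttn, H3K27ac was higher in heart, 1.64 ± 1.18% of the window (SD, n = 6) against 0% (n = 4), with an exact p = 0.0143 and an adjusted p = 0.0363. The same was called for 19.9% of 6619 stretches of 290 kb. The call was lost without any of the 4 liver libraries or heart 33018, 73317, 6839 or 6837 (adjusted p from 0.0919 to 0.102) and held without 17_36584 (0.0387) or the pool (0.0394). Without a liver library the difference itself stayed at 1.64 points. H3K4me3 covered 0.900 ± 0.463% against 0%, with an exact p = 0.0143 and an adjusted p = 0.224. For H3K4me3 0% of 8054 stretches were called and 9.11% had an unadjusted p under 0.05 with heart higher. Without 6837 the H3K4me3 share was 0.781%. The H3K4me1 difference was 2.22 points, 2.25 ± 2.49% (n = 5) against 0.0266 ± 0.0531% (n = 4), with an exact p = 0.0952 and an adjusted p = 0.295, and for that mark 0% of 7363 stretches were called and 2.55% had an unadjusted p under 0.05 with heart higher. Without 17_3498 it was 1.19 points and without the pool 2.79 points (adjusted p = 0.380 and 0.112, exact permutation test).

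**Figure D3:**
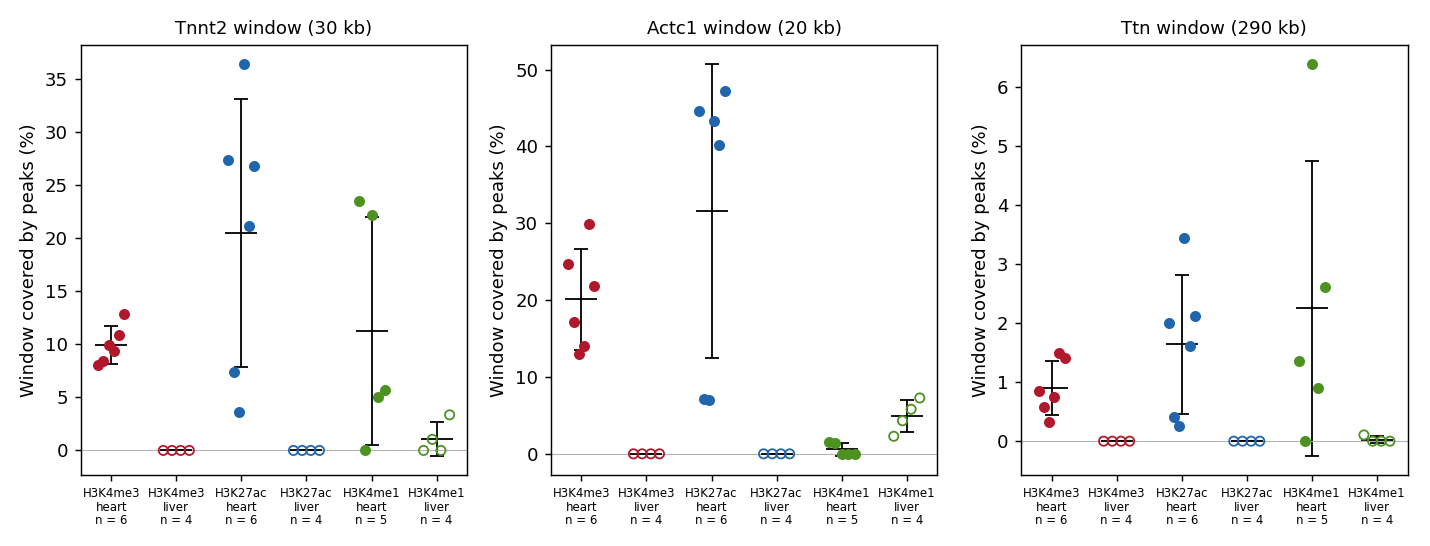
Percent of each window under peaks, 1 point per library, filled for heart and open for liver, with the mean (horizontal line) and SD (bars); the 3 panels have different vertical scales. In every panel the heart points of H3K4me3 and H3K27ac lie above liver points that are all at 0, and 2 heart H3K27ac points, the pool and 17_36584, lie far below the other 4.

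The heart H3K4me1 lists came from 2 series of library numbers, while all liver lists came from 1. Within the series shared with liver, which left 2 heart libraries against 4, the H3K4me1 differences were 10.6 points at Tnnt2, -3.41 at Actc1 and 0.652 at Ttn, with adjusted p of 0.610, 0.593 and 0.759 in the exact permutation test. All 6 heart libraries of H3K4me3 and of H3K27ac were of the series shared with liver.

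The 3 genes differed in how densely the windows were marked. Divided by the share of the genome under peaks in the same list, heart H3K4me3 was 10.7 ± 3.36 times the genome level at Tnnt2, 21.5 ± 7.16 times at Actc1 and 0.971 ± 0.466 times at Ttn (SD, n = 6). For H3K27ac the ratios were 8.97 ± 5.06, 14.3 ± 9.54 and 0.697 ± 0.418. The windows differ in length and in how much surrounding sequence they take in, and the Ttn window is mostly gene body, so these ratios describe the windows and not the promoters. In bases the genes were closer: mean heart H3K4me3 was 2980 at Tnnt2, 4027 at Actc1 and 2611 at Ttn.

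In most heart H3K4me3 lists the marked stretches, with nearby peaks joined, ranked high by width and middling by fold. With peaks up to 1000 bases apart joined into domains, the widest Tnnt2 H3K4me3 domain was 2419 to 4343 bases and wider than 87.9 to 99.1% of the domains in its own list. At Actc1 the domains were 2496 to 3874 bases and wider than 81.0 to 98.6%. At Ttn they were 400 to 3676 bases, and the lowest percentile of 17.6 came from the pool, the median being 94.1. With only overlapping peaks joined, the mean width fell from 3362 to 2189 bases at Actc1 and from 2763 to 1165 at Ttn. The widest single peak was wider than 89.0 to 98.9% of the peaks in its list at Tnnt2. At Actc1 this was 45.1 to 98.5% and at Ttn 29.9 to 93.8%, so the high rank there depended on the joining in some lists. By fold, the highest H3K4me3 peak stood above 39.0 to 83.8% of its list at Tnnt2, 26.1 to 74.6% at Actc1 and 23.2 to 69.0% at Ttn. The H3K4me3 medians were 49.5%, 45.8% and 42.8%. For H3K27ac the medians were higher, 88.8% at Tnnt2, 84.4% at Actc1 and 92.8% at Ttn. The H3K27ac ranges were 76.8 to 97.5%, 59.7 to 93.9% and 46.7 to 96.3%, and overlapped those of H3K4me3 at each gene. Among the 3 genes, Tnnt2 had the highest H3K4me3 fold in 5 of 6 heart lists and Actc1 in the pool. For H3K27ac each gene led in 2 of 6 lists, and Actc1 was lowest in 4.

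**Figure D4:**
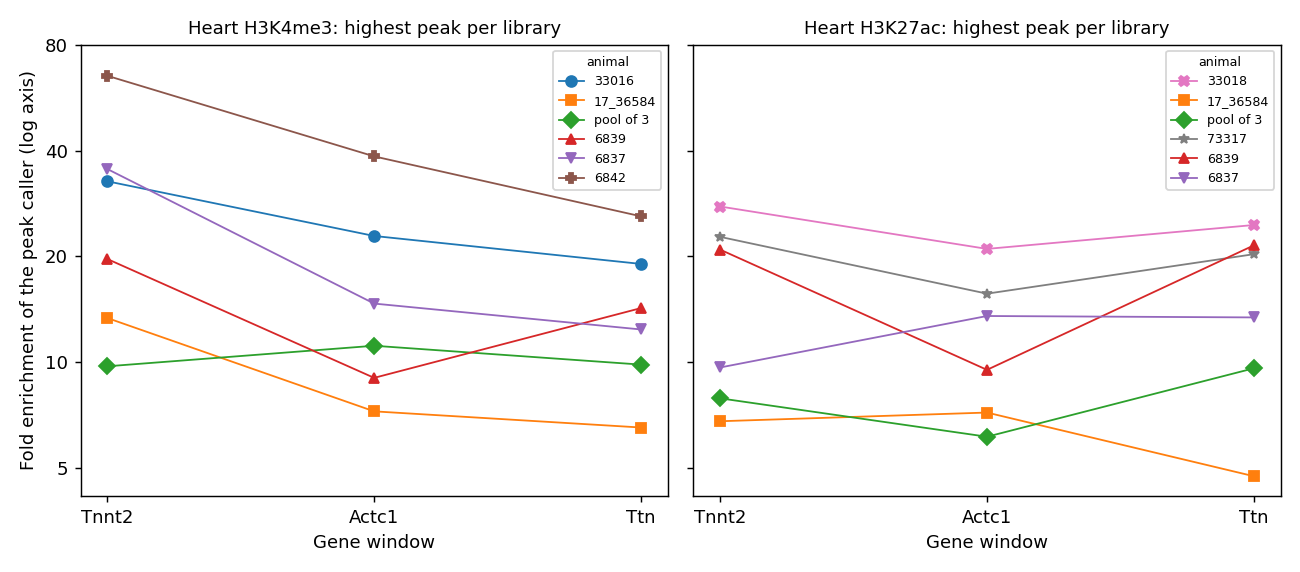
Fold enrichment of the highest peak in each gene window (log axis), 1 line per heart library, for H3K4me3 on the left and H3K27ac on the right; lines join values of the same list only, since folds of different lists are not on a common scale. For H3K4me3 the Tnnt2 value is the highest of the 3 genes in 5 of 6 lists, and for H3K27ac no gene leads in more than 2 lists.

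H3K4me3 and H3K27ac lists were both available from the same heart in 4 cases, the pool, 17_36584, 6839 and 6837. In 6839 and 6837 nearly all H3K4me3 bases were under H3K27ac of the same animal: 100% and 100% at Tnnt2, 84.7% and 92.9% at Actc1, and 100% and 84.1% at Ttn. In 17_36584 and the pool the shares were 47.5% and 26.5% at Tnnt2, 25.5% and 24.6% at Actc1, and 30.9% and 31.4% at Ttn. The latter pair had the shortest H3K27ac coverage at each gene, while their H3K4me3 at Tnnt2, 2528 and 2986 bases, lay within the range of the others. At Ttn their H3K4me3 was also the lowest of the 6, with 1694 and 918 bases against 2192 to 4338, and at Actc1 the pool was lowest with 2606 bases and 17_36584 had 3439. Their Myh6 windows held 4491 and 2427 bases of H3K27ac, against 6438 to 8322 in the other 4 heart libraries, and their Alb windows held none.

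**Figure D5:**
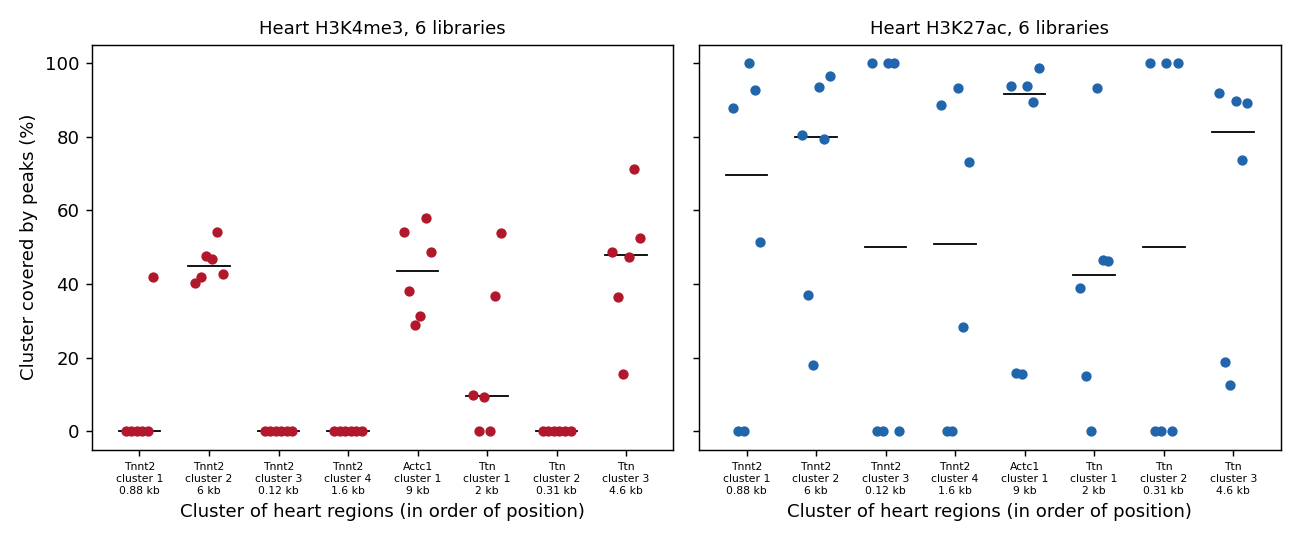
Share of each cluster of heart regions under H3K4me3 (left) and H3K27ac (right), in percent, 1 point per heart library with the median as a line; clusters are regions of either mark joined over gaps of up to 1000 bases and are numbered by position. H3K4me3 is present in all 6 libraries in 1 cluster per gene, and H3K27ac takes in the other clusters in some libraries, with the lowest values in those 3 clusters again from 17_36584 and the pool.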

How the data were processed

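Narrow-peak lists of 29 mouse histone libraries were read, 1 list per library. Peaks were called with MACS2, per the submitters' processing notes, and each list names an input library and the build GRCm38; the aligner is not given in the sources used here, nor is any version. The deposited fold is a linear ratio over background. Deposited p-values and q-values are on the −log10 scale, as the caller wrote them; the lowest −log10 q was 1.30. The number of peaks moves with depth, which is unknown.

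Overlapping peaks of a list were merged with Python 3.11.15, NumPy 2.4.6 and pandas 2.3.3, and plots drawn with Matplotlib 3.10.9. The value tested was the percent of a window under peaks. Each of 9 comparisons (3 genes, 3 marks) used a two-sided exact permutation test over libraries, heart minus liver, on the window and on every tile of its length with a peak in at least 1 library, on 19 autosomes and X, adjusted by the Benjamini-Hochberg method over all of them at 0.05. No fold was tested. A region is a run of bases covered in at least 3 of 6, 3 of 5 or 2 of 4 libraries of a group. Named per gene and mark are the widest and the 3 with the highest mean of the libraries' highest fold. That fold is of any peak overlapping the region, so a wide peak counts in each region it spans. Joining regions into clusters was added after seeing the data. The members, windows and lists were chosen with earlier results of these data known. The permutation test was checked on simulated data without the adjustment, and the merging of peaks on a small example. The Benjamini-Hochberg step was not checked in this way. Lists of other sarcomere genes, of genes with like patterns and of further cell type markers need an annotation of GRCm38 and were not analysed here, and no sequence is shown. The Alb and Myh6 windows were set by hand. The list of heart H3K4me1 33017 carries a tag in its name that the labels do not explain. Alternatives were a stricter q, equal numbers of peaks, scaling to genome coverage, a wider window, a log2 scale, the number of peaks, 1 library series and leaving out each library.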

Additional observations from a re-analysis of the deposited data

Results flagged for a closer look

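In liver H3K4me1 at Ttn, library 85920 had 0.106% of the window under a peak and the other 3 libraries had 0%. It was picked out because its gap to the nearest value was the whole range of the group. The value rests on 1 peak of 308 bases, chr2:76980058-76980365, with a fold of 5.30. With the other 3 libraries tied at 0 any single peak would give this gap, so Dixon's critical value does not apply and the gap says nothing about how unusual the library is.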

How the results depend on the processing

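No paired analysis was possible because no animal gave both liver and heart, so replicate numbers are not shared between the tissues compared. Leaving out 1 library at a time kept every direction. The H3K27ac differences then ranged from 17.3 to 23.9 points at Tnnt2, 28.4 to 36.5 at Actc1 and 1.28 to 1.91 at Ttn, and 8 of the 10 omissions ended each call. The liver omissions changed no H3K27ac difference, as every liver value was 0, and left fewer ways to arrange the libraries in the test. Why heart omissions ended the calls was not tested. With the window widened the Tnnt2 H3K27ac difference was 5.65 points and not called, as liver peaks of the flank entered. With equal numbers of peaks the Actc1 H3K4me1 difference reversed to 0.291 points. Only 20521 peaks per list were then kept, which left the pool's list uncut, and the reversal rests on the pool's peak alone. The other alternatives changed no call and no direction. The H3K4me3 and H3K4me1 differences were called under none of them. With 1 library series no H3K4me1 call was possible, as too few heart libraries were left. Mean heart H3K4me3 domain width with joining gaps of 0, 1000 and 3000 bases was 2189, 3362 and 6503 bases at Actc1, 1165, 2763 and 3115 at Ttn, and 2604, 3132 and 3132 at Tnnt2. Lists give no depth, so a missing peak is a value below a threshold that may differ between libraries.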
